A study of Homo sapiens with 3 samples.

Results

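The D, E, A and B cyclins are the regulatory subunits that switch on the cyclin-dependent kinases (CDKs) of the cell cycle. The set was fixed by gene symbol as CCND1, CCND2, CCND3, CCNE1, CCNE2, CCNA1, CCNA2, CCNB1 and CCNB2. The rule itself uses no measured value, but the set was chosen with earlier results of these data known. Of these 9 genes, 8 had a probe that could be named on the array, among 25006 named genes in all, and no probe was matched to CCNA1, the germ-line A cyclin. The 8 genes were read by 10 probes on 28 spots per array. CCND1 and CCNA2 each had 1 probe printed on 10 spots, CCNB1 and CCNE2 had 2 probes each, and the other genes had 1 probe on 1 spot.

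The cells were U87WT 5 and U87Mut 5, which are single clones of the U-87MG human glioblastoma line. U87WT carried a stably transfected fusion of GFP with the wild-type IGF1 receptor (IGF1R), and U87Mut carried the same fusion with 3 lysines replaced by arginine, which cannot be SUMOylated and does not reach the nucleus. Both clones were selected with G418, and the endogenous receptor was not removed from either. Each condition was measured on 1 two-color array: 24 h in medium without serum (FBS-free), 24 h with 50 nM IGF1, and 24 h with 50 nM IGF1 in the continued presence of 0.5 µM OSI906 added 1 h earlier. OSI906 is a small-molecule inhibitor of both the IGF1 and the insulin receptor kinase. Cy5 marked the U87WT sample and Cy3 the U87Mut sample on every array, so that a dye bias of a probe and a difference between the clones cannot be told apart, and no parental or empty-vector cells were compared here. All 3 arrays lay on 1 slide.

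D cyclins pair with CDK4 and CDK6 and carry growth factor signals to the retinoblastoma protein, whose phosphorylation frees the E2F factors. E cyclins with CDK2 then drive the start of DNA replication, cyclin A2 with CDK2 and CDK1 acts through replication and into mitotic entry, and B cyclins with CDK1 drive mitosis. The E and A cyclins are E2F targets, the A and B cyclins are also controlled through CCAAT and CHR elements by NF-Y, DREAM and the MYBL2 and FOXM1 complexes, and CCND1 is a textbook target of LEF1 and TCF as well as of growth factor signaling. Nuclear IGF1R has been tied to LEF1 and CCND1 in earlier work, and the arrays allow the mRNA of these genes to be compared between the clones.

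Of the 60901 non-control spots on each array, none was saturated, and 27223 of 58201 probes (46.8%) passed the scanner's mark for well above background for both clones in every condition, and are called bright here. The glioma line markers VIM, NES, CD44, S100A6 and OLIG2 were among the bright probes, while GFAP and SOX2 were not well above background in any channel. Of 7 markers of other lineages, PTPRC, EPCAM and CDH5 had bright probes and the other 4 did not. IGF1R mRNA itself differed little between the clones in the main processing, with clone log2 ratios of 0.07, 0.23 and 0.09 in FBS-free medium, IGF1 and IGF1 with OSI906. The sign was not stable. On the IGF1 array the ratio was -0.17 in the deposited values and -0.12 with the background fitted on all spots. With the arrays centred on their median in place of loess it was 0.57 there and -0.20 on the FBS-free array. Whether the IGF1R probe reads the endogenous transcript, the transfected one or both was not determined.

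The cyclin genes CCND1, CCNE2, CCNA2, CCNB1 and CCNB2 were lower in U87WT than in U87Mut, and the clone log2 ratios of CCND3 and CCNE1 lay within 0.28 of 0 on every array, though not under every alternative. The clone log2 ratio (U87WT over U87Mut, brightest probe of each gene) was below -0.5 for 4 of 7 bright cyclin genes in FBS-free medium, 5 of 7 with IGF1 and 5 of 7 with IGF1 and OSI906, while 4.72%, 3.65% and 4.21% of all bright probes were below that limit. None of the 7 was above 0.5, where 4.73%, 5.26% and 4.58% of bright probes stood. CCND1, CCNE2, CCNA2 and CCNB2 were below -0.5 on all 3 arrays, as were 1.7% of bright probes. The median ratio of the 7 genes was -0.66, -0.68 and -0.63 on the 3 arrays, and that of all bright probes was -0.01, 0.00 and 0.00. A ratio of 0.5 corresponds to a 1.41-fold difference.

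**Figure D1:**
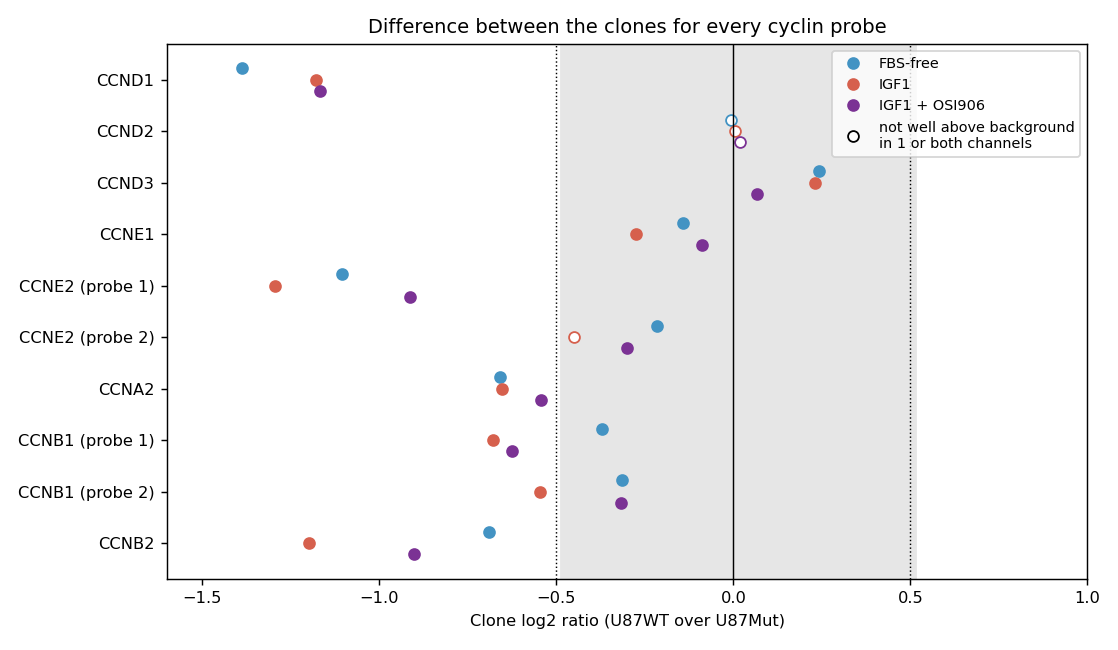
Clone log2 ratio (U87WT over U87Mut, horizontal axis) of each of the 10 cyclin probes, with 1 point per array colored by condition; open points were not well above background in 1 or both channels, dotted lines mark 0.5 in either direction, and the grey band spans the lowest 5th to the highest 95th percentile of all bright probes over the arrays. The CCND1, CCNA2, CCNB2 and brighter CCNE2 points lie to the left of the band on every array. The CCND3 and CCNE1 points lie inside it.

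With the 3 arrays taken as repeats of the clone comparison, limma with Benjamini-Hochberg adjustment called 4.36% of 57318 probes lower in U87WT and 4.49% higher, and among the bright probes 9.06% lower and 9.03% higher. The brightest probes of 5 of the 7 genes were called lower: CCND1, CCNE2, CCNA2, CCNB2 and CCNB1. The arrays are different conditions and come from 1 clone of each kind, so this error holds the response to treatment and leaves out the spread between clones and between cultures. With the arrays centred on their median in place of loess, or with the signals processed by the scanner software, no probe of the array was called (5085 and 10026 probes had an unadjusted p under 0.05), and all 5 cyclin calls were lost, although all 5 mean ratios remained negative.

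The D cyclins differed from each other. CCND1, the cyclin most tied to growth factor signaling, had a net brightness of 377 in U87WT and 1146 in U87Mut in FBS-free medium, of 626 and 1013 with IGF1, and of 535 and 1196 with IGF1 and OSI906. U87WT was below U87Mut on every array. The clone log2 ratio was -1.39 ± 0.07 (SD over 7 spots) in FBS-free medium, -1.18 ± 0.04 (SD over 10 spots) with IGF1 and -1.17 ± 0.05 (SD over 7 spots) with IGF1 and OSI906. These SDs are technical and cover the spots of 1 array. CCND1 was thus 2.62-fold, 2.27-fold and 2.25-fold higher in U87Mut, and at most 0.32% of bright probes had ratios as low. The mean over the arrays was -1.25 ± 0.06 (SE, n = 3 arrays; limma adjusted p = 0.0027).

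CCND1 in U87WT also had the largest difference between FBS-free medium and IGF1 among the 7 bright cyclin genes, though not under every alternative. CCNE2 exceeded it with an offset of 0, no normalization between arrays or scale normalization between arrays, at -0.81, -0.52 and -0.47. With the background fitted on all spots, CCNE2 stood at 0.64 beside 0.62 for CCND1. After normalization the log2 level of CCND1 in U87WT was 8.66, 9.21 and 9.25 in the order FBS-free, IGF1, and IGF1 with OSI906, and in U87Mut 10.05, 10.39 and 10.41. The level with IGF1 was thus 0.55 (1.46-fold) higher in U87WT and 0.34 (1.27-fold) higher in U87Mut than in FBS-free medium, and 98.7% and 96.9% of bright probes had values at or below these. IGF1 with OSI906 minus IGF1 alone was 0.04 in U87WT and 0.03 in U87Mut. The sign of this small difference depended on the setting: it was -0.08 and -0.13 with the background fitted on all spots, and -0.14 and 0.20 with median in place of loess. Against FBS-free medium, IGF1 with OSI906 stood 0.59 and 0.37 higher. The comparison of U87WT kept its sign under every alternative, between 0.32 and 0.89, whereas that of U87Mut ran from 0.00 with median in place of loess to 0.45, and its net brightness was not higher with IGF1.

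CCND3, which serves the same kinases, differed by less than the limit of 0.5. Its net brightness was 370 in U87WT and 323 in U87Mut in FBS-free medium, 357 and 206 with IGF1, and 301 and 272 with IGF1 and OSI906. The clone log2 ratios were 0.24, 0.23 and 0.07, with a mean of 0.18 ± 0.05 (SE, n = 3 arrays; limma adjusted p = 0.12). The sign was not stable: the ratio was -0.06 on the IGF1 array with the background fitted on all spots, -0.10 there in the deposited values, and -0.02 on the FBS-free array with median in place of loess, which also put the IGF1 array at 0.54. CCND2 was near the floor of the array: its net brightness was at most 10 in any channel, U87Mut was not well above background in any condition, and U87WT was not with IGF1 and OSI906. The measured ratios of -0.01, 0.00 and 0.02 give no fold for CCND2.

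**Figure D2:**
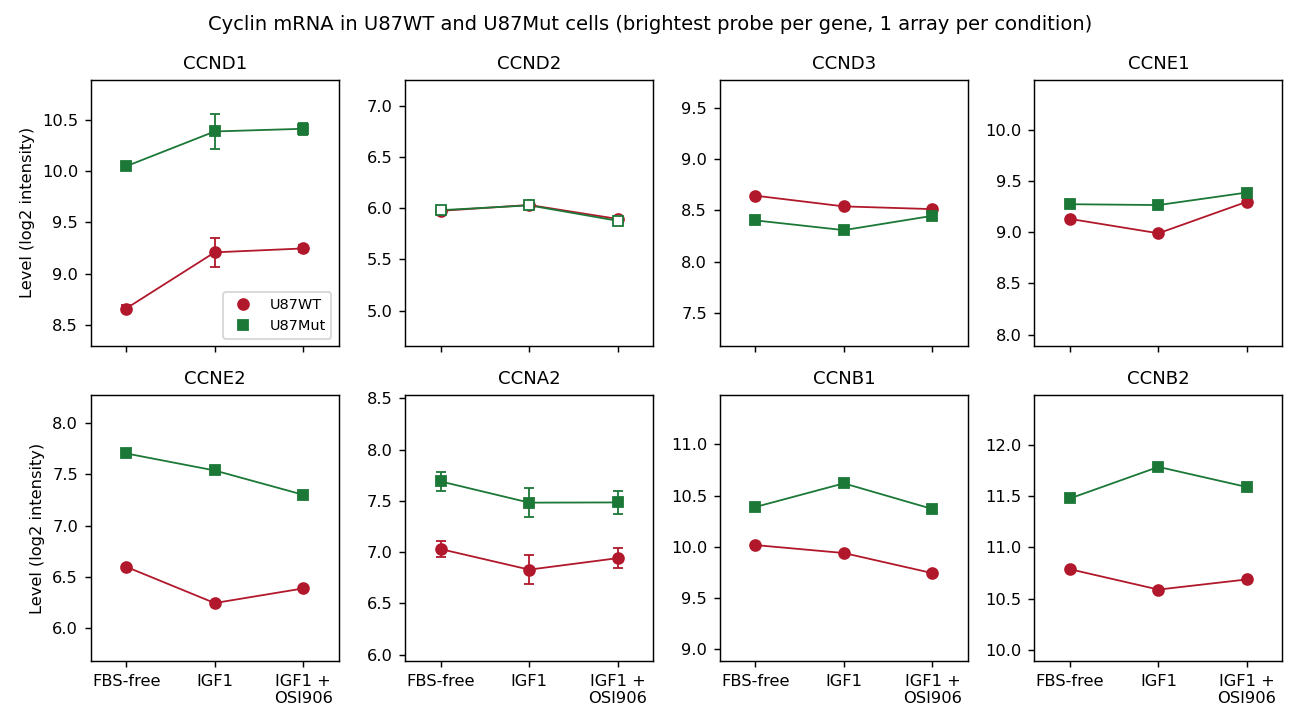
Normalized log2 level (vertical axes, all spanning the same range) of the brightest probe of 8 cyclin genes in U87WT (circles) and U87Mut (squares) on the array of each condition; error bars, for CCND1 and CCNA2, are the SD over the spots of 1 array, and open symbols are channels not well above background. CCND1 stands higher with IGF1 than in FBS-free medium in both clones, and the lines of U87WT lie below those of U87Mut for CCND1, CCNE2, CCNA2, CCNB1 and CCNB2.

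The E cyclins also split. CCNE2 was lower in U87WT on both of its probes. The brighter probe had a net brightness of 42 in U87WT and 167 in U87Mut in FBS-free medium, 24.5 and 109 with IGF1, and 30 and 96 with IGF1 and OSI906. U87WT was the dimmer clone each time, and the clone log2 ratios were -1.11, -1.29 and -0.91, or 2.15-fold, 2.45-fold and 1.88-fold higher in U87Mut. The mean was -1.11 ± 0.08 (SE, n = 3 arrays; limma adjusted p = 0.0048). The offset of 50 added to every corrected intensity shrinks the ratio of so dim a probe: with an offset of 0 the ratios were -1.70, -2.40 and -1.71. On the IGF1 array the ratio was -0.25 when the background was fitted on all spots, including those marked as not uniform.

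The second CCNE2 probe was dimmer, with net brightness of 8 to 15 in U87WT and 23.5 to 27 in U87Mut. Its ratios were -0.22, -0.45 and -0.30 (limma adjusted p = 0.034 for the mean). On the IGF1 array its U87WT channel was not well above background, so the measured 1.37-fold higher level of U87Mut there rests on a signal near the floor. CCNE1 differed by less than the limit, with a net brightness of 547 and 646 in FBS-free medium, 519 and 442 with IGF1, and 556 and 566 with IGF1 and OSI906 for U87WT and U87Mut. Its clone log2 ratios were -0.14, -0.28 and -0.09, and the mean of -0.17 ± 0.05 (SE, n = 3 arrays) had a limma adjusted p of 0.13. On the IGF1 array the ratio was -0.54, past the limit, in the deposited values and 0.08 with median in place of loess.

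CCNA2, CCNB1 and CCNB2, whose mRNAs accumulate from replication to mitosis, were all lower in U87WT. Their promoters are shown because these genes differed in the same direction and share the CCAAT element. Each line gives bases -130 to -1 from the RefSeq transcription start on GRCh38.p14, read along the gene, with capitals for matches to CCAAT, which reads ATTGG on the opposite strand, to the CHR consensus TTTGAA and to the cAMP response element TGACGTCA.
CCNA2, chr4:121823884-121824013 (minus strand): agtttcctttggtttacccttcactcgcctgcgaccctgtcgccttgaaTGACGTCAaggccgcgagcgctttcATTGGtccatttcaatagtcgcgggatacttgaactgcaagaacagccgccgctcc
CCNB1, chr5:69167020-69167149 (plus strand): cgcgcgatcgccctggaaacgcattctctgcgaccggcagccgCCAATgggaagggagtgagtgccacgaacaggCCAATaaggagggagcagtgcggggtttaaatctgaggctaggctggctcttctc
CCNB2, chr15:59105016-59105145 (plus strand): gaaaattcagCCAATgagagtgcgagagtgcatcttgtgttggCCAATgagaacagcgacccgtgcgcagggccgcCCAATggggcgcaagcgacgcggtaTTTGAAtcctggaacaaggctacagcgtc

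CCAAT starts at -87 and -55 in CCNB1 and at -120, -87 and -54 in CCNB2, and its reverse ATTGG starts at -56 in CCNA2. A further CCAAT starts at -244 in CCNB2, outside the printed stretch. TTTGAA was found in CCNB2, at -29, and TGACGTCA in CCNA2, at -81. Over 35116 RefSeq promoter windows of 300 bases around the start, searched on both strands, 34.6% held CCAAT, 15.2% TTTGAA and 1.85% TGACGTCA. TTTCCCGC, an E2F site sequence held by 1.63%, was in none of the 8 windows of CCND3, CCNE1, CCNA1, CCNA2, CCNB1 and CCNB2. Those of CCND1, CCND2 and CCNE2 were not searched here. The 1 window of CCNE1 and the 1 of CCNA1 held none of these motifs, and 2 of the 3 windows of CCND3 held CCAAT. A match of letters is a description of the sequence only. Only these exact letters were searched, so a gene without a match can still hold a variant of the element.

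CCNA2 had a net brightness of 78.5 in U87WT and 167 in U87Mut in FBS-free medium, 66.1 and 100.1 with IGF1, and 68.6 and 116 with IGF1 and OSI906. The clone log2 ratios over 10 spots were -0.66 ± 0.09, -0.65 ± 0.10 and -0.54 ± 0.12 (SD over spots). U87Mut was thus 1.58-fold, 1.57-fold and 1.46-fold higher. The mean was -0.62 ± 0.04 (SE, n = 3 arrays; limma adjusted p = 0.0043). With the background fitted on all spots the ratio on the IGF1 array was -0.17.

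CCNB1 had a net brightness of 1070 in U87WT and 1460 in U87Mut in FBS-free medium, 1080 and 1173 with IGF1, and 781 and 1156 with IGF1 and OSI906. The clone log2 ratios were -0.37, -0.68 and -0.63, with a mean of -0.56 ± 0.07 (SE, n = 3 arrays; limma adjusted p = 0.016). The second CCNB1 probe gave -0.31, -0.55 and -0.32, a smaller difference of the same sign on each array (limma adjusted p = 0.026 for the mean). CCNB2 had a net brightness of 1921 and 3184 in FBS-free medium, 1748 and 2624 with IGF1, and 1570 and 2685 with IGF1 and OSI906 for U87WT and U87Mut. Its ratios were -0.69, -1.20 and -0.90, or 1.61-fold, 2.29-fold and 1.87-fold higher in U87Mut. The mean was -0.93 ± 0.10 (SE, n = 3 arrays; limma adjusted p = 0.011). Without the array of IGF1 with OSI906, the limma calls of CCNB1 and CCNB2 were lost (adjusted p = 0.12 and 0.096).

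For both B cyclins the ratio of the brightest probe was farther from 0 with IGF1 than in FBS-free medium, except with median in place of loess, where it was nearer to 0 with IGF1 (-0.94 against -0.70 for CCNB2, and -0.65 against -0.24 for CCNB1, FBS-free against IGF1). The CCNB2 log2 level was 10.79, 10.59 and 10.69 in U87WT and 11.48, 11.79 and 11.59 in U87Mut in the order FBS-free, IGF1, and IGF1 with OSI906. IGF1 minus FBS-free was -0.20 in U87WT and 0.31 in U87Mut for CCNB2, and -0.08 and 0.23 for CCNB1. With median in place of loess all 4 signs turned, to 0.17 and -0.06 for CCNB2 and to 0.28 and -0.13 for CCNB1. For CCNA2 the same comparison gave -0.20 and -0.21, but 0.29 and -0.19 with the background fitted on all spots and -0.01 and -0.40 with median in place of loess. In this comparison 5% of bright probes lay above 0.37 and 5% below -0.34 in U87WT, and 5% above 0.28 and 5% below -0.31 in U87Mut, so that of these values only that of CCNB2 in U87Mut lay outside its clone's range.

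Past the limit of 0.5 in either direction, IGF1 against FBS-free medium held 1 of the 7 cyclin genes in U87WT (CCND1), beside 3.99% of bright probes, and 0 of 7 in U87Mut, beside 2.1%. IGF1 with OSI906 against IGF1 held 0 of 7 in U87WT and 0 of 7 in U87Mut, beside 6.54% and 2.45% of bright probes. IGF1 with OSI906 against FBS-free medium held 1 of 7 in U87WT (CCND1 again), beside 3.96%, and 0 of 7 in U87Mut, beside 1.12%. Without normalization between arrays, CCND1 in U87WT fell short of the limit against FBS-free medium, at 0.32 with IGF1 and 0.35 with IGF1 and OSI906. The comparisons share arrays and have 1 array per condition, so none of these differences has a replicate check or a test. CCNE2 came next in size, at -0.35 in U87WT for IGF1 against FBS-free medium and -0.40 in U87Mut for IGF1 with OSI906 against FBS-free medium. The first of these turned to 0.64 when the background was fitted on all spots. CCND3 and CCNE1 lay within 0.31 of 0 in every comparison at this setting, and CCND3 in U87Mut stood at -0.38 for IGF1 against FBS-free medium with median in place of loess.

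**Figure D3:**
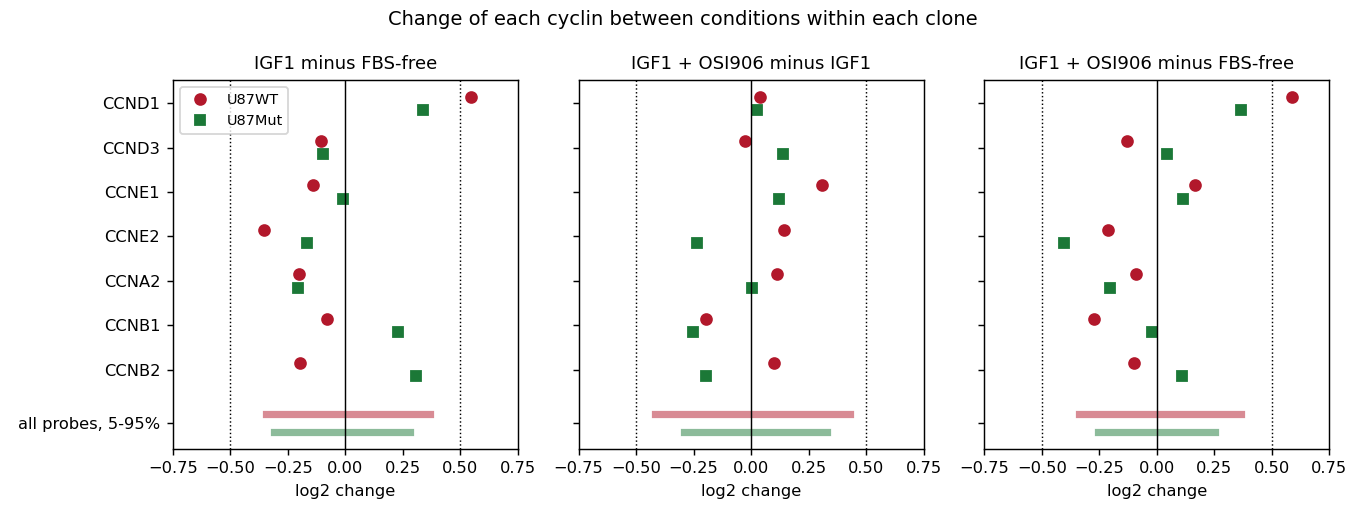
Log2 change of the brightest probe of 7 cyclin genes between conditions (horizontal axes) in U87WT (circles) and U87Mut (squares); bars at the bottom span the 5th to 95th percentile of all bright probes in each clone, and dotted lines mark 0.5 in either direction. CCND1 in U87WT is past the line for IGF1 and for IGF1 with OSI906 against FBS-free medium, at 0.55 and 0.59, and no cyclin is past it for IGF1 with OSI906 against IGF1.

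The kinase partners were compared next. CDK1, the partner of the A and B cyclins, was lower in U87WT with clone log2 ratios of -0.74, -0.84 and -0.92 (limma adjusted p = 0.0036). CDK2, the partner of the E and A cyclins, had -0.49, -0.59 and -0.29 (adjusted p = 0.021). CDK4 had -0.24, 0.06 and -0.21 (adjusted p = 0.39). CDK6 was the exception with 0.26, 0.26 and 0.24, higher in U87WT on every array (adjusted p = 0.018). Of these 4 partners, limma called 2 lower and 1 higher in U87WT, beside 9.06% lower and 9.03% higher among all bright probes.

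Of the genes that switch cyclin-CDK complexes on or hold them off, 8 of 10 were called lower in U87WT and 0 higher, beside 9.06% and 9.03% of bright probes. CDC25A, a phosphatase that activates CDK2, had clone log2 ratios of -1.29, -1.27 and -1.0. PKMYT1, a membrane kinase that inhibits CDK1, had -1.29, -1.24 and -0.98, so an activator and an inhibitor were lower by a like amount. CKS1B, a small CDK-binding subunit, had -0.99, -1.17 and -1.05. The median of the 10 was -0.45, -0.50 and -0.41, against -0.01, 0.00 and 0.00 for all bright probes. With median in place of loess these medians were -0.70, -0.13 and -0.26.

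Of the 18 RB, E2F and DREAM genes tested, 17 were bright. Limma called 9 of the 18 lower and 0 higher (9.06% and 9.03% of bright probes). E2F5 was not tested because its spot was marked on the FBS-free array. E2F2, an activator of replication genes, had the lowest ratios of the list at -1.62, -1.74 and -1.26. E2F1 had -1.01, -0.87 and -0.77, and RBL1, the pocket protein p107 that represses E2F targets, had -0.89, -0.98 and -0.58. FOXM1, a driver of mitotic genes, had -0.45, -0.74 and -0.60. RB1, RBL2 and E2F3 were not called, and their ratios lay between -0.22 and 0.41. The median of 17 bright genes was -0.45, -0.28 and -0.43. With median in place of loess, which moved the median of all bright probes on the IGF1 array to 0.20, the list's median on that array was 0.16. In U87Mut, RBL1 was 0.55 lower with IGF1 and OSI906 than with IGF1, and E2F2 was 0.53 lower with IGF1 and OSI906 than in FBS-free medium.

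**Figure D4:**
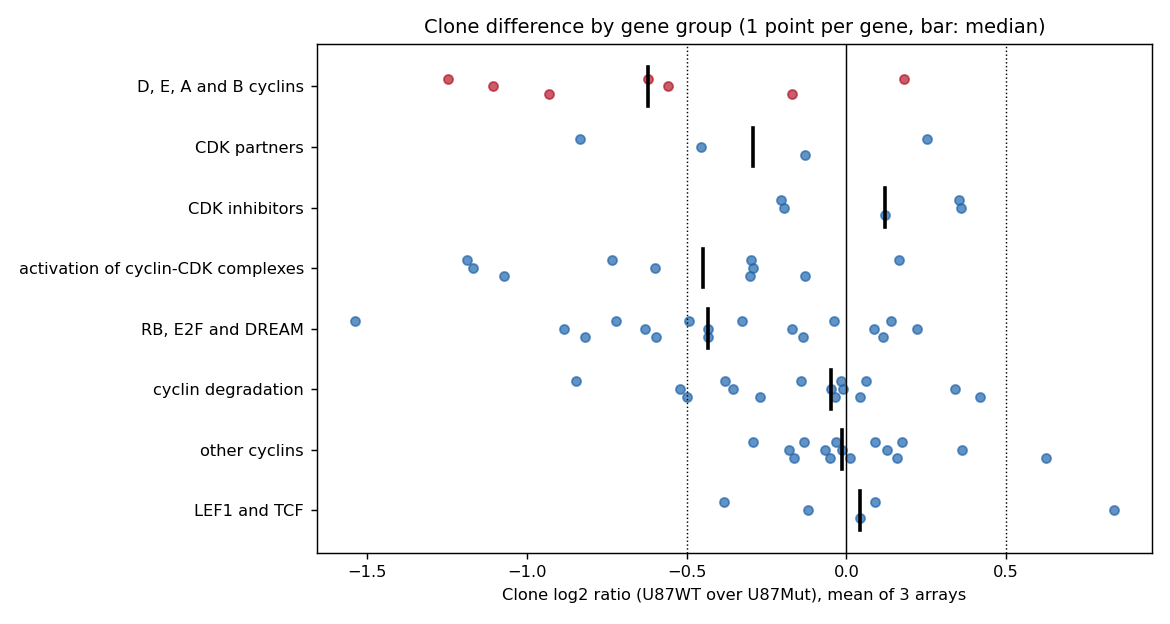
Clone log2 ratio averaged over the 3 arrays (horizontal axis) for the 7 bright cyclin genes and the bright genes of 7 related lists, with 1 point per gene and the median of each group as a bar; dotted lines mark 0.5 in either direction. The cyclins, the genes of cyclin-CDK activation and the RB, E2F and DREAM genes have medians left of 0, while the CDK inhibitors and the other cyclins have medians near 0.

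The CDK inhibitors gave 1 call among 7 genes, of which 5 were bright, near the shares of bright probes called (9.06% lower and 9.03% higher). CDKN1B (p27), which inhibits cyclin E and A complexes, had clone log2 ratios of 0.48, 0.06 and 0.51 (limma adjusted p = 0.13). Within U87WT its level was 0.46 lower with IGF1 than in FBS-free medium and 0.75 higher with OSI906 than with IGF1 alone. The same comparisons in U87Mut gave -0.04 and 0.30. CDKN1A (p21) had -0.27, 0.05 and -0.37 (adjusted p = 0.31). CDKN2B, an inhibitor of CDK4 and CDK6, stood 0.59 higher with OSI906 than with IGF1 alone in U87WT and 0.33 in U87Mut. The 1 gene that limma called was CDKN2A, higher in U87WT with 0.27, 0.38 and 0.43.

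Of the genes that degrade cyclins, 3 of 15 were called lower and 2 higher, beside 9.06% and 9.03% of bright probes. UBE2C, the E2 enzyme of the anaphase-promoting complex that marks the A and B cyclins for destruction, had -0.56, -1.17 and -0.81. It was lower in U87WT with IGF1 than in FBS-free medium, by 0.54. UBE2S, which extends the ubiquitin chains, had -0.43, -0.72 and -0.41. FBXO5, an inhibitor of the complex, had -0.58, -0.31 and -0.60. The activator CDC20 had -0.33, -0.64 and -0.18 and was not called, while the other activator, FZR1, was called higher with 0.35, 0.28 and 0.39. AMBRA1, the adaptor for degradation of D cyclins, was called higher with 0.39, 0.56 and 0.30. CUL1, the scaffold of the SCF ligases, had -0.18, -0.25 and -0.63 and was not called.

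Cyclins outside the set had medians of 0.00, 0.03 and 0.02 over 15 bright genes, with 1 of 18 called lower and 2 higher, near the 9.06% and 9.03% of bright probes. CCNL2, a cyclin of transcription and splicing, was called higher in U87WT with 0.70, 0.45 and 0.72. Within U87WT it was 0.56 lower with IGF1 than in FBS-free medium and 0.62 higher with OSI906 than with IGF1 alone. CCNK, the partner of CDK12 and CDK13, had 0.42, -0.63 and 0.59 and changed sign on the IGF1 array. CCNL1 had 0.09, -0.14 and 0.52, CCNG1 had 0.07, 0.54 and -0.10, and CCNY had -0.05, 0.09 and -0.53. None of these 4 was called. Within U87WT, CCNK and CCNL1 stood 0.66 and 0.69 higher with IGF1 and OSI906 than with IGF1 alone. Within U87Mut, CCNK and CCNC, the cyclin of the Mediator kinase, stood 0.74 and 0.50 higher with IGF1 than in FBS-free medium.

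The LEF1 and TCF genes were listed because of their link to CCND1. LEF1 was lower in U87WT with -0.20, -0.48 and -0.47 (limma adjusted p = 0.036), the direction of CCND1. AXIN2, a textbook target of the same factors, went the other way with 1.12, 0.49 and 0.90 (adjusted p = 0.024). In U87WT, AXIN2 stood 0.80 lower with IGF1 than in FBS-free medium and 0.73 higher with OSI906 than with IGF1 alone, and CCND1 stood 0.55 higher in the first of these and 0.04 in the second. TCF7, TCF7L1, TCF7L2 and CTNNB1 were not called.

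The likeness of other genes was measured as the Euclidean distance over 6 log2 levels (both clones on 3 arrays), each centred on the gene's own mean, among 15103 genes with bright probes. Nearest to the mean pattern of CCNA2, CCNB1 and CCNB2 were PTTG1 at 0.10, CLSPN at 0.10, NUP35 at 0.11, WEE1 at 0.12 and NOLC1 at 0.15. PTTG1 (securin, which holds back separase) had clone log2 ratios of -0.57, -0.84 and -0.58, and CLSPN (claspin, a replication checkpoint adaptor) had -0.62, -0.86 and -0.69. Nearest to CCND1 were CTH at 0.32, SLC7A5 at 0.35, CEBPG at 0.36, SNHG1 at 0.38 and RCAN1 at 0.39. No gene was as near to CCND1 as the first 5 were to the A and B cyclins. CTH, which makes cysteine, had -1.41, -0.99 and -0.93, and SLC7A5, a transporter of large neutral amino acids, had -1.52, -1.16 and -1.34. The 6 values of a gene share 3 arrays, and the distances are a description.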

How the data were processed

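The members and gene lists were chosen with earlier results of these data known. Each array was deposited by the authors as median spot and local background intensity per channel, read by Agilent Feature Extraction 12.0.3.1 and not normalized, with quality marks (other) and processed intensities. The log10 ratio deposited in the same files was not used. The authors also deposited a log2 ratio per probe, made with limma per the submitters' processing notes (version not given in the sources used here), which served as an alternative. The Pearson correlation of the deposited ratios with those used here was 0.99 on the FBS-free array and 0.99 on that of IGF1 with OSI906. It was only 0.65 on the IGF1 array, so ratios and changes that use the IGF1 array depend more on the processing. The concentration of OSI906 is that of the sample title and the paper, since 1 field of the labels gives a higher one.

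Intensities were corrected in R 4.3.3 with limma 3.58.1 by normexp with an offset of 50, fitted without the spots marked as not uniform (384, 572 and 5 on the FBS-free, IGF1 and IGF1 with OSI906 arrays). After 2075 of 62976 spots were dropped as controls, loess was applied within each array and Aquantile between arrays. Probe values are means over spots that carry no outlier mark. Loess sets the bulk of ratios to 0. A probe was named when its RefSeq transcript was in the GRCh38.p14 annotation (34892 probes). Net brightness is median spot minus background intensity. A gene is given by its brightest probe, and a bright probe is one marked well above background for both clones in every condition. Differences past 0.5 were counted with no test. The clone ratio over the 3 arrays was tested with limma (intercept only, eBayes, Benjamini-Hochberg at 0.05). The genes named are all cyclin probes, up to the 3 largest each way past 0.5 in each list, 8 genes fixed by name (CDK1, CDK2, CDK4, CDK6, CDKN1A, CDKN1B, IGF1R, LEF1) and the genes of most similar pattern. Others named in the lists (CDKN2A, RB1, RBL2, E2F3, FZR1 and the remaining TCF genes) were chosen after their values were seen. Single ratios varied with an SD of 0.14, taken from the FBS-free and OSI906 arrays over bright probes and holding any response to treatment. There is 1 array per condition, and this number limits the precision. Scripts were tested on simulated data.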

Additional observations from a re-analysis of the deposited data

Results flagged for a closer look

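In 7 comparisons a cyclin moved in opposite directions in the clones. These differences were not tested, each rests on 1 array per condition, and small values of either sign fall here by chance. For IGF1 minus FBS-free medium, the change in U87WT minus that in U87Mut was -0.51 for CCNB2 and -0.31 for CCNB1. For IGF1 with OSI906 minus IGF1 it was 0.38 for CCNE2, 0.30 for CCNB2 and -0.17 for CCND3. For IGF1 with OSI906 minus FBS-free medium it was -0.21 for CCNB2 and -0.18 for CCND3. All 7 changed sign under at least 1 alternative: the IGF1 minus FBS-free values ran up to 0.24 for CCNB2 and 0.40 for CCNB1 with median in place of loess, the CCNE2 value was -0.66 with the background fitted on all spots, where both clones moved down, and the remaining CCNB2 and CCND3 values reached -0.08, 0.13, 0.16 and 0.12 in the order given. Between the FBS-free and OSI906 arrays, single clone ratios of bright probes varied with an SD of 0.14. That SD leaves out the IGF1 array, and the values above are differences between ratios, which vary more than a single ratio.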

How the results depend on the processing

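The clones are paired within each array by the ratio itself. Between conditions, no paired analysis was possible because each condition has 1 array. All alternatives were planned, and mean in place of median spot brightness was not run, since no column of mean spot brightness is used here. No clone ratio past 0.5 changed sign under any of them, and 132 of 192 recomputed ratios moved by less than 0.14. The count of cyclin genes below -0.5 with IGF1, 5 of 7, was 3 with the background fitted on all spots, 3 with median in place of loess and 3 at a limit of 1, at which the counts were 2 in FBS-free medium and 1 with OSI906. The count for IGF1 against FBS-free medium in U87WT, 1 of 7, was 2 with the background fitted on all spots, offsets of 0 or 20, no background correction or scanner processed signals, and 0 at a limit of 1. The added gene was CCNE2. With no normalization between arrays CCND1 was at 0.32, short of 0.5, and the 1 gene past it was CCNE2 at -0.52. With scale normalization between arrays CCND1 was at 0.39 and CCNE2 at -0.47, both short of it. IGF1 with OSI906 against FBS-free medium gave 2 in U87WT with an offset of 0 and 0 at a limit of 1. There CCND1 fell short of 0.5 with no normalization between arrays, at 0.35, where CCNB1 was past it at -0.51. With scale normalization between arrays CCND1 was at 0.44. In U87Mut the count was 1 with an offset of 0, median, processed signals, no normalization between arrays or scale normalization between arrays. IGF1 with OSI906 against IGF1 gave 1 in U87WT with the background fitted on all spots.

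Limma called 5071 probes and 5 of the 7 cyclin genes lower. With the background fitted on all spots it called 714 probes and 1 cyclin gene (CCND1), 785 probes and 1 with the deposited values, 694 probes and 3 with an offset of 0, and with median in place of loess or scanner processed signals 0 and 0. Leaving out each array gave 737 to 6284 probes and 3 to 5 cyclin genes. The lowest values came without the array of IGF1 with OSI906, and 1923 probes were called without the FBS-free array. CCND3 and CCNE1 were called under no alternative. The causes were not tested. Signal over background limits CCND2 and the second CCNE2 probe.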
